A study of Mus musculus with 12 samples.

Results

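The vascular endothelial growth factor (VEGF) and angiopoietin genes were followed as 10 members of the 27998 genes counted in single cells of the mouse joint. The rule took the rows named *Vegfa*, *Vegfb*, *Vegfc*, *Flt1*, *Kdr*, *Flt4*, *Angpt1*, *Angpt2*, *Tek* and *Tie1*, and each of the 10 symbols had 1 row. The cells were live CD45-negative cells, which leaves out most immune cells, from the hind limb joints of wild-type (WT) C57BL/6 male mice aged 8 to 10 weeks. All the mice outside the rest group had received serum of K/BxN mice, which causes serum transfer-induced arthritis (STIA), a joint inflammation that later subsides. There were 3 libraries for each label, namely rest (no treatment, day 0), peak (days 7 to 9), resolving (taken at day 15) and resolved (taken at day 22). Every library pooled the joints of 3 animals, so n counts pools and no value belongs to a single mouse.

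Both pathways act through receptor tyrosine kinases that are best known from the endothelium, the cell layer that lines blood and lymph vessels. VEGF-A, the product of *Vegfa*, binds VEGFR1 (*Flt1*) and VEGFR2 (*Kdr*), and VEGFR2 carries most of the growth and permeability signal. VEGF-B binds VEGFR1, and VEGF-C binds VEGFR3 (*Flt4*), the main growth receptor of lymphatic vessels. Angiopoietin 1 (*Angpt1*) activates the receptor TIE2 (*Tek*) and keeps vessels quiet, angiopoietin 2 (*Angpt2*) acts on the same receptor and often opposes it, and TIE1 (*Tie1*) is a partner of TIE2 without a well established ligand of its own. In inflamed joints the synovium, the soft lining of the joint, forms new vessels.

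After the study's limits on genes and unique molecular identifiers (UMIs, tags of single captured RNA molecules) per cell, 20060 of 21042 cells remained, 1227 to 2747 per library, with 7468914 to 16566202 UMIs per library and no cell barcode shared between libraries. Cells were clustered again without the members, and clusters were named from marker genes. This gave 11870 fibroblasts, 2039 tenocytes, 1766 vascular endothelial cells, 1358 osteoblasts, 850 chondrocytes, 655 perivascular cells (pericytes and smooth muscle of the vessel wall), 632 proliferating cells, 265 muscle cells, 186 lymphatic endothelial cells, 112 immune cells and 108 Schwann cells, with 219 cells unnamed. The marker sums followed these names: the 8 vascular endothelial markers summed to 6624 to 8372 UMIs per 1000000 in the vascular endothelial cells of a library against 40.2 to 150.6 in fibroblasts. Libraries did not group by their labels. Each carries a suffix from 1 to 12 on its barcodes, and by fibroblast expression 12 of 12 libraries had their nearest neighbour within the same run of 3 suffixes (1 to 3, 4 to 6, 7 to 9 or 10 to 12) and 0 of 12 within their label. Groups are therefore called by their labels, and values are also given by suffix. Whether the labels and the deposited libraries match was not tested, and every value by stage below rests on the labels being right.

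A level below is the number of UMIs of a gene per 1000000 UMIs (CPM) in the sum of all cells of a type in 1 library, for sums of at least 10 cells. Cell types were compared with fibroblasts by edgeR's quasi-likelihood test with the library as a block, with Benjamini-Hochberg adjustment over 10076 genes. A gene passed, or was called, where its adjusted p-value was under 0.05 and the size of its log2 fold change over 0.5. The 10 members all passed the filter on low counts in this comparison. In vascular endothelial cells, 7 members were higher and 3 lower than in fibroblasts, where 53.4% of all genes tested passed in either direction. The median log2 fold change was 4.15 over the members and -0.01 over all genes.

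**Figure D1:**
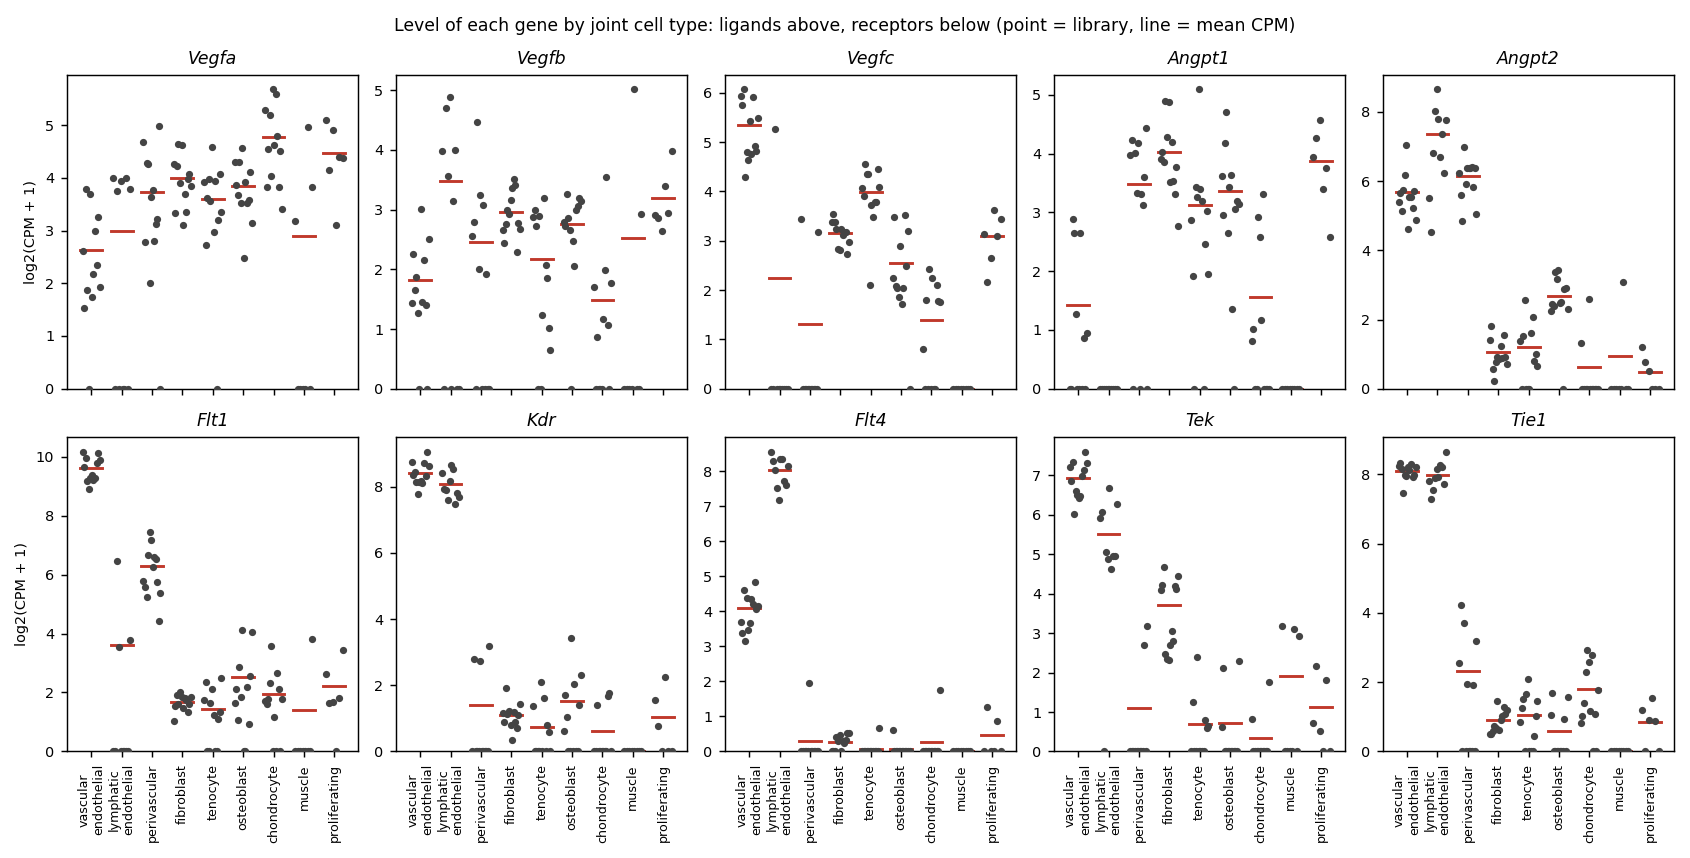
Levels of the 10 members by cell type, with 1 panel per gene. Each point is the level in 1 library on a log2(CPM + 1) axis and each line is the mean level in CPM of that type. *Flt1* stood highest in vascular endothelial cells and next in perivascular cells, *Flt4* in lymphatic endothelial cells, and *Angpt2* in all 3 vessel cell types.

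*Flt1* had the largest log2 fold change of the receptors in vascular endothelial cells against fibroblasts. In vascular endothelial cells its level ran from 480 to 1138 CPM with a median of 732 over 12 libraries, against 1.03 to 3.01 CPM in fibroblasts with a median of 2.21. The groups did not overlap. The mean was 787 ± 224 CPM against 2.18 ± 0.57 (SD, n = 12 libraries), or 8.16 higher on the log2 scale (adjusted p = 1.34e-52 by edgeR, SE 0.23). In GRCm38 the gene spans chromosome 5 from 147561604 to 147726011, minus strand, and is protein-coding like the other members.

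*Kdr*, whose product is the main signalling receptor for VEGF-A, ran from 219 to 527 CPM in vascular endothelial cells, with a median of 321, and from 0.27 to 2.74 CPM in fibroblasts. Its log2 fold change was 7.83 (adjusted p = 6.72e-56, SE 0.18). *Tie1* had the narrowest spread, 175 to 323 CPM in vascular endothelial cells with a median of 279, against 0.41 to 1.76 CPM in fibroblasts. Its log2 fold change was 7.78 (adjusted p = 7.81e-59, SE 0.17). For both genes every endothelial library lay above every fibroblast library.

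*Tek*, the angiopoietin receptor, was the receptor with an appreciable level outside the vessel wall. It ran from 63.5 to 192 CPM in vascular endothelial cells (median 120) and from 4.02 to 24.7 CPM in fibroblasts (median 11.8), so its log2 fold change was smaller, 3.19 (adjusted p = 2.97e-36, SE 0.14). Fibroblasts in turn held more *Tek* than the other mesenchymal types. The log2 fold change against fibroblasts was -5.06 (SE 0.48) in chondrocytes, -4.19 (SE 0.36) in tenocytes, -4.09 (SE 0.38) in osteoblasts and -3.38 (SE 0.53) in perivascular cells, with adjusted p-values of at most 6.51e-08 from edgeR. Among the 655 perivascular cells, 3 *Tek* UMIs were counted.

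The windows just upstream of 3 receptor genes hold the 250 bases before the RefSeq start in GRCm38.p6, in the direction of the gene, and capitals mark the core GGAAG or its reverse complement CTTCC, which ETS factors of endothelial genes bind. They are shown for the vessel receptors *Flt1* and *Kdr* and for *Tek*, the receptor that fibroblasts also held. *Flt1* (chr5:147726012-147726261, minus strand) holds 3 cores, *Kdr* (chr5:75978456-75978705, minus strand) holds 1 and *Tek* (chr4:94739039-94739288, plus strand) holds 0. Of 32851 windows of the same length, 64.1% hold at least 1 core and 10.7% hold 3 or more, so the core is common and its count is a description of the letters alone. The window of *Kdr* overlaps the annotated start by a few bases.
Flt1: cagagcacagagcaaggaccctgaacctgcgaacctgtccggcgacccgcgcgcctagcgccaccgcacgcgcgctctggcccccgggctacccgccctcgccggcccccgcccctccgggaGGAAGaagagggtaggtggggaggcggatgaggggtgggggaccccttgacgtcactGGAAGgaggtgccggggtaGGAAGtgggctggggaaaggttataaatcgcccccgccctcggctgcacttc
Kdr: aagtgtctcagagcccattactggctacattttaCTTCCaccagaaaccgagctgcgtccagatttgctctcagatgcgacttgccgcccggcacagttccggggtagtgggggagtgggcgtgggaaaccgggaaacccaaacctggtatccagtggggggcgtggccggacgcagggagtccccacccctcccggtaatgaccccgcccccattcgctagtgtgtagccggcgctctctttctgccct
Tek: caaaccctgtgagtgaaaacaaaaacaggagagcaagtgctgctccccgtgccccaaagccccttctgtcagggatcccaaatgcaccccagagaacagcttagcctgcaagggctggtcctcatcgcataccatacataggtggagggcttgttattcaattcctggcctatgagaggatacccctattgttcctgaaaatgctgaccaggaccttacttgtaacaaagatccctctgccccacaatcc

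Windows were found for 8 of the 10 members. The most cores were in that of *Tie1*, with 6 (chr4:118489850-118490099, minus strand), and those of *Vegfb* and *Vegfc* held 0. Most of the *Tie1* window lies inside the annotated gene, whose span reaches 118490061, and the window of *Flt4* lies wholly inside its gene. These counts are therefore not of upstream bases alone. The hypoxia response core ACGTG, or CACGT on the other strand, was in 16.6% of all windows and in 1 of the 2 windows of *Vegfa*, once. That *Vegfa* window also lies inside the annotated gene.

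*Flt4*, the receptor for VEGF-C, separated the 2 endothelial types. It ran from 143 to 371 CPM in lymphatic endothelial cells (median 272, 10 libraries) and from 7.94 to 27.8 CPM in vascular endothelial cells (median 16.3, 12 libraries), without overlap. They differed by 3.59 on the log2 scale (adjusted p = 6.50e-27 by edgeR, SE 0.21), where 22.6% of all genes passed between these types. Against fibroblasts, which held 17 *Flt4* UMIs in all, the log2 fold change was 9.01 in lymphatic (SE 0.25) and 5.42 in vascular endothelial cells (SE 0.25).

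Lymphatic endothelial cells shared *Tie1* and *Kdr* with blood vessels but not *Flt1*. The *Tie1* level was 254 ± 69.8 CPM (SD, n = 10) against 271 ± 40.8 in vascular endothelial cells (SD, n = 12), a log2 difference of 0.36 in favour of the latter (adjusted p = 0.0853 by edgeR, SE 0.16), which did not pass. *Kdr* was 0.64 lower on the log2 scale in lymphatic cells (adjusted p = 0.00285, SE 0.17), at 268 ± 78.3 CPM (SD, n = 10). In vascular endothelial cells it was at 343 ± 86.1 CPM (SD, n = 12). *Tek* was lower in lymphatic cells by 1.89 (adjusted p = 9.00e-09, SE 0.27), at 44.8 ± 30.2 CPM (SD, n = 10). Against fibroblasts, the median over all genes was -0.31 in lymphatic and -0.01 in vascular endothelial cells. The fitted differences between the 2 types include this shift, and those of *Kdr* and *Tie1* are of a similar order. *Flt1* was at 0 in 7 of 10 lymphatic libraries and totalled 9 UMIs, and its log2 fold change against fibroblasts, 1.76 (adjusted p = 0.0565, SE 0.77), did not pass. In this type 5 members were higher and 2 lower than in fibroblasts, beside 39.7% of all genes, and the 2 lower were *Vegfa* (log2 fold change -1.82, SE 0.51) and *Angpt1*, which had 0 UMIs. Counted with a floor of 3 UMIs over the group, or 4.03 CPM, *Angpt1* was at least 3.80-fold lower there than the mean of fibroblasts.

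The 2 angiopoietins had opposite distributions. *Angpt1* was a mesenchymal transcript. It was highest in fibroblasts, from 5.84 to 28.8 CPM with a median of 13.7 over 12 libraries, while in vascular endothelial cells 6 of 12 libraries were at 0 and the highest reached 6.40 CPM. The log2 fold change was -3.44 (adjusted p = 1.32e-13 by edgeR, SE 0.37). Proliferating cells (13.7 ± 6.30 CPM, n = 6) came next. They were lower than fibroblasts of the same library in 6 of 6 libraries, but the log2 fold change of -0.57 did not pass (adjusted p = 0.103, SE 0.27). *Angpt1* was also lower than in fibroblasts in chondrocytes, by 3.16 on the log2 scale (SE 0.40), in tenocytes by 0.95 (SE 0.25), in perivascular cells by 0.84 (SE 0.32) and in osteoblasts by 0.70 (SE 0.24). The perivascular difference lost its call without any 1 of 4 libraries (rest replicate 2, resolving replicate 2, resolved replicates 1 and 2), with values of -0.79 to -0.70.

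*Angpt2* was highest in the vessel wall. In lymphatic endothelial cells it ran from 22.2 to 400 CPM (median 138, 10 libraries), in perivascular cells from 27.8 to 126 (median 77.6, 12 libraries) and in vascular endothelial cells from 23.5 to 130 (median 45.3, 12 libraries). Every one of these libraries lay above the fibroblasts, whose highest level was 2.54 CPM. The log2 fold changes against fibroblasts were 6.48 (SE 0.28), 5.68 (SE 0.24) and 5.10 (SE 0.21), and the neighbours in that order differed from each other, by 0.80 (adjusted p = 0.00465, SE 0.24, beside 31.2% of all genes) and by 0.57 (adjusted p = 0.0120, SE 0.20, both from edgeR). Osteoblasts, at 5.47 ± 2.70 CPM (SD, n = 12), were the only other type in which *Angpt2* passed as higher than in fibroblasts (log2 fold change 2.14, adjusted p = 1.12e-07, SE 0.34), with 42 UMIs. *Angpt2* on chromosome 8 and *Angpt1* on chromosome 15 each overlap another gene on the opposite strand, *Mcph1* and Gm17473, and the other 8 members overlap no annotated gene.

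**Figure D2:**
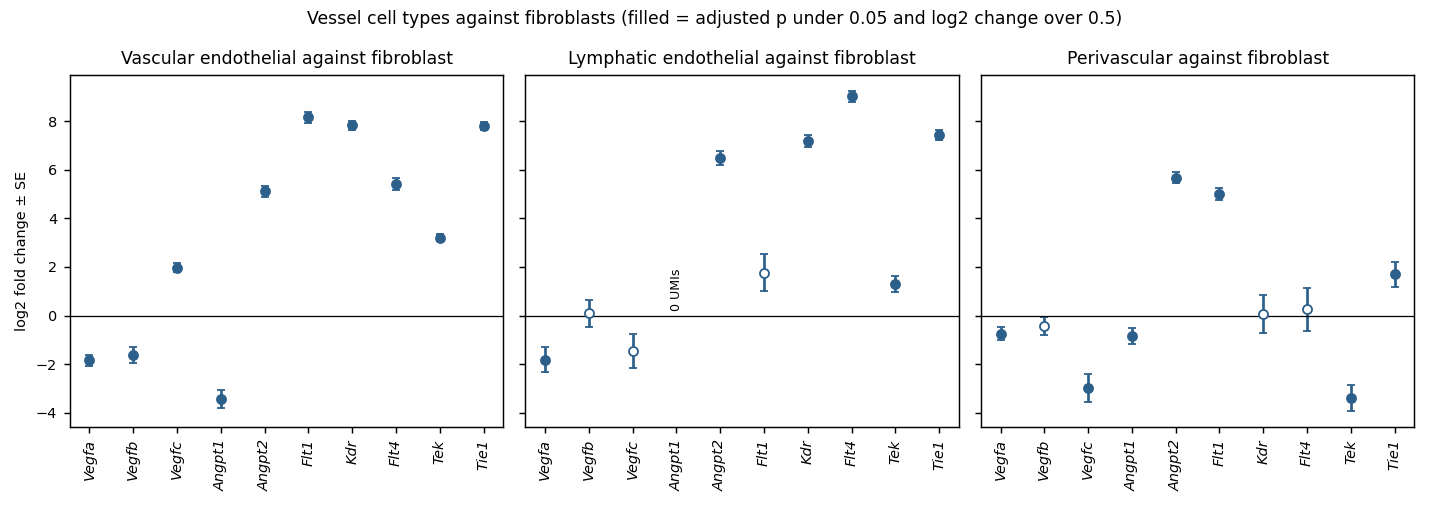
Log2 fold change of each member in vascular endothelial, lymphatic endothelial and perivascular cells against fibroblasts, with bars of 1 SE, filled where the change passed the threshold. *Flt1*, *Kdr* and *Tie1* lay between 7.78 and 8.16 in vascular endothelial cells, *Flt4* reached 9.01 in lymphatic endothelial cells, and in perivascular cells *Angpt2* and *Flt1* stood at 5.68 and 4.99.

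Perivascular cells held *Flt1* without *Kdr*. The *Flt1* level ran from 20.5 to 174 CPM (median 64.9, 12 libraries), above the fibroblasts of every library, with a log2 fold change of 4.99 (adjusted p = 1.19e-32 by edgeR, SE 0.25), and it was 3.17 lower than in vascular endothelial cells (adjusted p = 1.27e-25, SE 0.20, beside 40% of all genes). *Kdr* was at 0 in 9 of the 12 perivascular libraries and its log2 fold change against fibroblasts was 0.06 (adjusted p = 0.962, SE 0.79). In UMIs, perivascular cells held 279 for *Flt1* and 4 for *Kdr*, a ratio of 69.8, while vascular endothelial cells held 6098 and 2574, a ratio of 2.37. The endothelial markers *Pecam1* and *Cdh5* had 31 and 26 UMIs in the perivascular cells against 8395 and 6734 in the endothelial cells, and the 8 endothelial markers summed to 280 to 563 CPM in perivascular libraries. Without the 46 perivascular and 258 endothelial cells of mixed subclusters, *Flt1* and *Angpt2* still passed (log2 fold changes 5.01 and 5.76), while *Angpt1* (-0.70) and *Vegfa* (-0.51) did not. In all, 3 members were higher (*Angpt2*, *Flt1* and *Tie1*) and 4 lower (*Tek*, *Vegfc*, *Angpt1* and *Vegfa*) than in fibroblasts, beside 40.5% of all genes. *Tie1* (log2 fold change 1.69, SE 0.52) rests on 11 UMIs and lost its call without peak replicate 1 or resolved replicate 1.

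Among the ligands, *Vegfa* stood highest in chondrocytes. It ran from 9.59 to 50.1 CPM there (median 22.9) and from 7.56 to 23.9 CPM in fibroblasts (median 14.3), so the groups overlapped, and chondrocytes were higher in 10 of 12 libraries. The log2 fold change was 0.87 (adjusted p = 9.74e-06 by edgeR, SE 0.17). Next came proliferating cells, at 21.1 ± 9.07 CPM (SD, n = 6). Their *Vegfa* level was above the fibroblasts of the same library in 6 of 6 libraries, but the difference did not pass. Of the chondrocytes, 537 came from a cluster led by *Cytl1* and *Clu* that passed 4 chondrocyte markers. The other 313 came from a cluster with *Col9a1* and *Col2a1* that passed 7. In chondrocytes 2 members were higher, *Vegfa* and *Tie1*, and 4 lower, beside 36.8% of all genes. *Tie1* there rests on 14 UMIs (log2 fold change 1.11, adjusted p = 0.0349, SE 0.44) and did not pass without rest replicate 2 or resolved replicate 2. Of 11 hypoxia-responsive genes tested, 8 were higher and 1 lower in chondrocytes, with a median log2 fold change of 1.13 against -0.07 over all genes. *Vegfa* was lowest in vascular endothelial cells, at 5.23 ± 4.06 CPM (SD, n = 12), for which the fitted log2 difference was -1.85 (adjusted p = 1.95e-11, SE 0.23).

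*Vegfc* stood highest in vascular endothelial cells, with tenocytes next. Lymphatic endothelial cells held 3 *Vegfc* UMIs in all, and 9 of their 10 libraries were at 0. Vascular endothelial cells held 18.5 to 66.1 CPM (median 35.8), tenocytes 3.30 to 22.6 (median 14.9) and fibroblasts 5.66 to 10.6 (median 8.03). Vascular endothelial cells lay above tenocytes by 0.96 on the log2 scale (adjusted p = 1.90e-05, SE 0.20, beside 50.4% of all genes) and tenocytes above fibroblasts by 1.02 (adjusted p = 1.80e-05, SE 0.19, both from edgeR). Tenocytes were higher than fibroblasts in 11 of 12 libraries, and the exception was peak replicate 2. In tenocytes 1 member was higher and 3 lower, beside 16.6% of all genes, and in osteoblasts 1 was higher and 3 lower, beside 28.1%. Osteoblasts (log2 fold change -0.92, SE 0.26), chondrocytes (-2.01, SE 0.35) and perivascular cells (-2.98, SE 0.56) held less *Vegfc* than fibroblasts, although with coarser clusters the osteoblast value turned to 0.03 (adjusted p = 0.935).

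*Vegfb* had low levels in every type. In fibroblasts it ran from 3.89 to 10.4 CPM, and it was lower in chondrocytes (log2 fold change -2.07, SE 0.40), vascular endothelial cells (-1.63, SE 0.33) and tenocytes (-0.81, adjusted p = 0.0342, SE 0.29). The tenocyte call was lost without any 1 of 5 libraries. In muscle cells (38.4% of all genes called) *Vegfc*, *Angpt1*, *Kdr*, *Flt4* and *Tie1* had 0 UMIs in 8 libraries, which puts *Angpt1* at least 3.68-fold and *Vegfc* at least 1.90-fold below the fibroblast mean. In proliferating cells (25.2% called) *Tek* was the 1 member that passed, with a log2 fold change of -2.20 (adjusted p = 4.86e-06, SE 0.40). Immune and Schwann cells were summed in 3 libraries each, where no more than 8 UMIs of any member were counted.

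Counted per cell, *Flt1* was found in 85.7% of vascular endothelial cells (95% Wilson interval 84.0% to 87.3%), *Kdr* in 63.6%, *Tie1* in 60.1% and *Tek* in 39.0%. The interval covers counting error only. In fibroblasts, which were deeper (median 5792.5 UMIs per cell against 3176.5), the same shares were 1.26%, 0.657%, 0.564% and 5.80%. *Flt1* and *Kdr* were found together in 57.3% of vascular endothelial cells and in 2.15% of lymphatic ones, while *Flt4* and *Kdr* were found together in 4.98% and 33.9%. *Angpt2* was found in 25.2% of perivascular cells (22.0% to 28.7%), 26.3% of lymphatic endothelial cells and 12.9% of vascular endothelial cells against 0.353% of chondrocytes. After thinning to 2000 UMIs per cell (201 shallower vascular endothelial cells left out), *Flt1* was found in 73.1% of them.

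Within the vascular endothelium, cells were clustered again without the members into 9 subclusters, and the 4 led by genes of another cell type or of division, with 258 cells, were left out. By markers, 349 cells were capillary-like (led by *Timp4* and *Gpihbp1*), 280 arterial-like (*Gja5*, *Sema3g*) and 213 venular-like (*Selp*, *Vwf*), and 2 stayed unnamed, 1 of 406 cells led by *Cxcl10* and *Cxcl2* and 1 of 260 cells led by *Cd276* and *Mest*. Each was compared with the mean of the other 4, and 5 members passed the filter on low counts (*Flt1*, *Kdr*, *Tie1*, *Tek*, *Vegfc*). Since the subclusters were drawn from other genes of the same cells, the tests say how large a difference was beside the spread between libraries.

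*Vegfc* was arterial. It ran from 89.6 to 304 CPM in arterial-like cells (median 209, 10 libraries), and no library of the other 4 subclusters exceeded 65.0 CPM. The log2 fold change was 3.31 (adjusted p = 1.06e-15 by edgeR, SE 0.23, where 16.7% of 2484 genes passed), and in capillary-like cells it was -1.62 (adjusted p = 0.00554, SE 0.46, beside 24.6%). *Kdr* leaned to capillaries, with a log2 fold change of 0.69 in capillary-like cells (adjusted p = 3.61e-05, SE 0.13) and -0.51 in arterial-like cells (adjusted p = 0.00096, SE 0.12), a value that fell under the fold limit without any 1 of 5 libraries. The *Cxcl10* subcluster held the most *Flt1*, 775 to 1785 CPM (median 1201, 11 libraries), and the *Cd276* subcluster the least, 312 to 516 CPM (median 397, 6 libraries). Their log2 fold changes were 0.75 (SE 0.08, beside 29.6%) and -1.27 (SE 0.15, beside 32.3%), with adjusted p-values of 7.92e-10 and 3.77e-09. No member passed in venular-like cells, where 23% of genes did.

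*Angpt2* was under the filter here and is given as levels. It was 70.2 ± 35.4 CPM in the *Cd276* subcluster (SD, n = 6), 53.4 ± 30.6 in capillary-like cells (n = 7), 36.1 ± 31.5 in the *Cxcl10* subcluster (n = 11), 9.94 ± 8.83 in venular-like cells (n = 8) and 8.78 ± 8.16 in arterial-like cells (n = 10). The 6 *Cd276* sums all came from runs 2 and 3 and 6 of the 7 capillary-like sums from runs 1 and 4. *Angpt2* in all vascular endothelial cells was 84.9 CPM in run 2 against 38.0 to 41.4 in the others. The levels of these 2 subclusters, those of *Flt1* included, therefore mix subcluster with run. The test of *Flt1* had the library as a block, and the *Cd276* subcluster entered it from runs 2 and 3 alone. *Tek* ran from 83.9 CPM in the *Cd276* subcluster to 172 in arterial-like cells, and none of its 5 comparisons passed. In the perivascular cells, pericyte-like cells held 97.2 ± 37.7 CPM of *Angpt2* (SD, n = 3) and smooth muscle-like cells 30.5 ± 19.4 (n = 10). For *Flt1* the values were 62.8 ± 42.2 and 15.3 ± 17.2 CPM. No member passed the filter in that comparison, where 14.3% of 1581 genes were called, so neither difference was tested. The 3 pericyte-like sums all came from suffixes 7 to 9, a run in which perivascular cells as a whole held 87.6 CPM of *Flt1* and 82.7 CPM of *Angpt2*. The 10 smooth muscle-like sums came from all 4 runs, so these means mix subset with run. Only resolving replicate 2 and resolved replicate 2 had sums of both subsets.

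**Figure D3:**
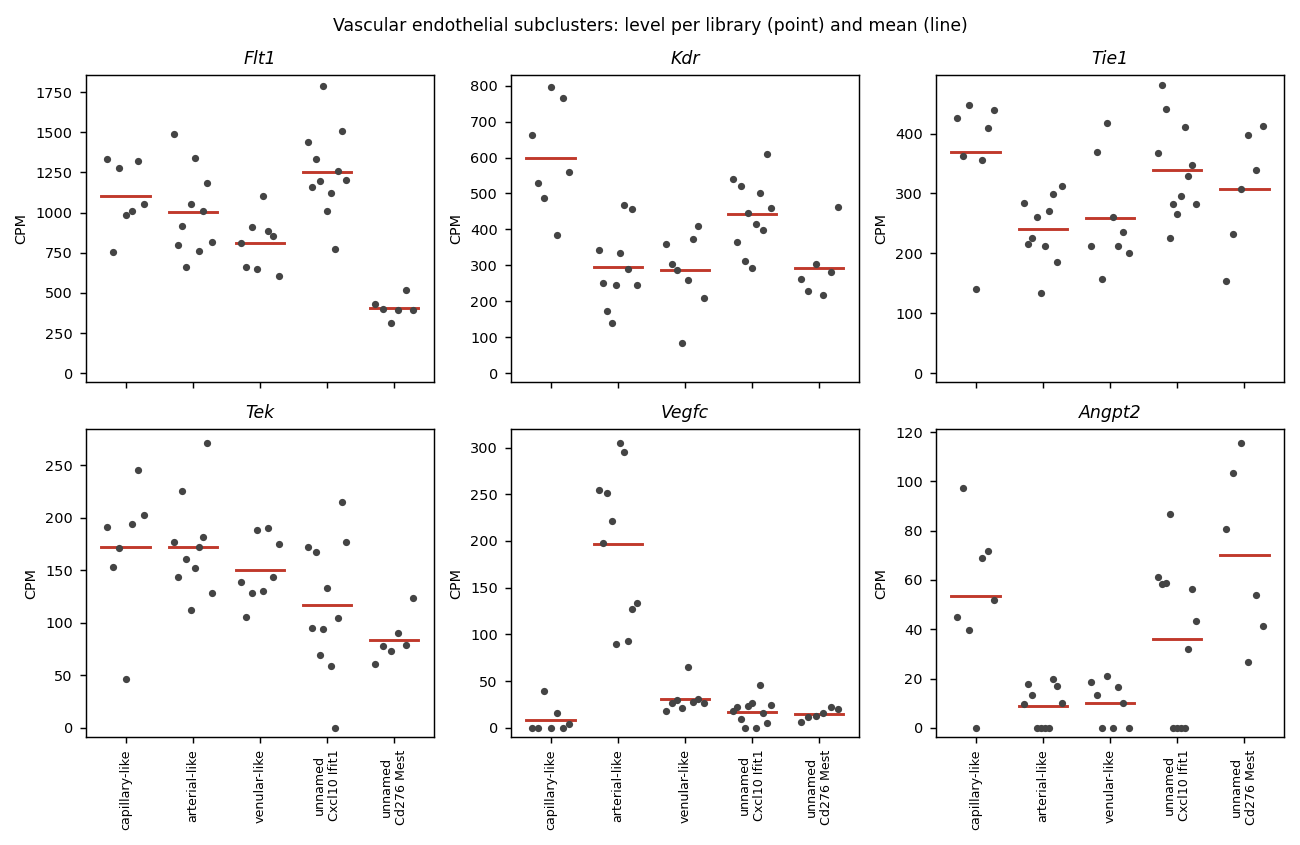
Levels of 6 members in the 5 vascular endothelial subclusters, where each point is 1 library in CPM and each line the mean. *Vegfc* stands out in arterial-like cells with a mean of 196.8 CPM, *Kdr* is highest in capillary-like cells at 597.8 CPM, and *Flt1* is lowest in the *Cd276* subcluster at 407 CPM.

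Fibroblasts fell into 10 clusters, and of the members *Tek*, *Angpt1* and *Vegfa* passed the filter on low counts over 7048 genes. Of the 30 comparisons of a cluster with the mean of the other 9, 15 passed, while between 14.5% and 33.2% of all genes passed per cluster. *Tek* was highest in the cluster named sublining, after the cells beneath the synovial surface layer. In the sublining cluster with *Dpp4* and *Pi16* (1929 cells) it ran from 12.8 to 61.1 CPM (median 39.9, 12 libraries), a log2 fold change of 3.25 (adjusted p = 6.28e-34 by edgeR, SE 0.16, beside 17.4%). It was also higher in the cluster with *Ccl11* and *Smoc2* (log2 fold change 2.78, SE 0.24, beside 21%) and in that with *Ccl7* and *Ptx3* (1.89, SE 0.22, beside 31.8%). It was lowest in the cluster with *Nppc* and *Egfl6*, with 2 UMIs in 903 cells (-3.59, SE 0.57, beside 31.9%), and lower in that with *C1qtnf3* and *Spon2* (-1.39, SE 0.35, beside 17.4%). In the lining fibroblasts of the surface layer the *Tek* value of -0.77 did not pass (adjusted p = 0.0701 by edgeR, SE 0.37).

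At least 1 *Tek* UMI was found in 19.3% of the *Dpp4* cluster (17.6% to 21.2%), with a median of 5216 UMIs per cell, against 0.235% of chondrocytes, 0.294% of tenocytes and 0.368% of osteoblasts. Thinned to 2000 UMIs per cell the share in the *Dpp4* cluster was 8.50%. The 689 fibroblasts with a *Tek* UMI carried few endothelial transcripts. Their 8 vascular endothelial markers summed to 60.7 CPM, against 94.2 CPM in fibroblasts without *Tek* and 7262 CPM in vascular endothelial cells, and *Flt1*, *Kdr*, *Flt4* and *Tie1* together to 2.79 CPM against 4.56 and 1452. The split by barcode suffix run was made after the pooled values were seen. In runs 1 to 4 the markers summed to 51.7, 138, 84.5 and 26.9 CPM in the 214, 87, 144 and 244 *Tek*-positive cells and to 43.3, 145, 104 and 46.8 CPM in the *Tek*-negative ones, so the *Tek*-positive cells were lower in 3 of the 4 runs. The 7 fibroblast markers summed to 52179 CPM in the *Tek*-positive and 33488 CPM in the other fibroblasts.

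*Angpt1* peaked in other clusters than its receptor. The cluster with *Cxcl5* and *Saa3* held 21.4 to 38.1 CPM (median 32.7, 6 libraries) and the cluster with *Dkk2* and *Penk* 13.5 to 44.0 CPM (median 30.2, 12 libraries), with log2 fold changes of 1.43 (adjusted p = 3.59e-12, SE 0.17, beside 23.7%) and 1.76 (adjusted p = 5.67e-16, SE 0.17, beside 19.7%). All sums of the *Cxcl5* cluster came from runs 2 and 3, so its level mixes cluster with run. Its mean *Angpt1* was 30.5 CPM in run 2 and 32.3 in run 3, against 35.0 and 31.6 in the *Dkk2* cluster. *Angpt1* was also higher in the clusters with *Ccl7* and *Ptx3* (1.30, SE 0.17), *Ccl11* and *Smoc2* (0.81, SE 0.24) and *Hp* and *Aldh1a2* (0.71, SE 0.20, beside 14.5%), the last of which was not called without resolved replicate 2. Lining fibroblasts, the surface layer with *Prg4* and *Clic5* (752 cells), held almost none, 0 to 1.90 CPM and 3 UMIs in all, a log2 fold change of -4.56 (adjusted p = 1.30e-18, SE 0.39, beside 33.2%). In the *Dpp4* cluster, where *Tek* was highest, *Angpt1* was at 8.90 ± 3.69 CPM (SD, n = 12) and did not differ past the threshold (-0.28, SE 0.24).

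*Vegfa* varied less between fibroblast clusters. It was higher in the cluster with *Il1rl1* and *Timp1* (log2 fold change 0.95, adjusted p = 0.000763, SE 0.24, 6 libraries, beside 28.8%) and in that with *Ccl7* and *Ptx3* (0.87, adjusted p = 1.36e-05, SE 0.18), at 22.5 ± 11.9 CPM (SD, n = 6) and 21.6 ± 12.2 CPM (SD, n = 12). All sums of the *Il1rl1* cluster came from runs 2 and 3, so its level mixes cluster with run. Its mean *Vegfa* was 28.2 CPM in run 2 and 16.7 in run 3, against 22.8 and 18.8 in the *Ccl7* cluster. In lining fibroblasts *Vegfa* was lower, at 4.88 ± 3.68 CPM (SD, n = 12; log2 fold change -1.82, adjusted p = 2.03e-09, SE 0.26). Of 8 hypoxia-responsive genes tested, 6 were higher and 1 lower in the *Il1rl1* cluster, with a median of 0.88 against -0.01 over all genes, and in lining fibroblasts 3 were higher and 2 lower. The *Ccl7* cluster was the one in which all 3 members were higher.

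**Figure D4:**
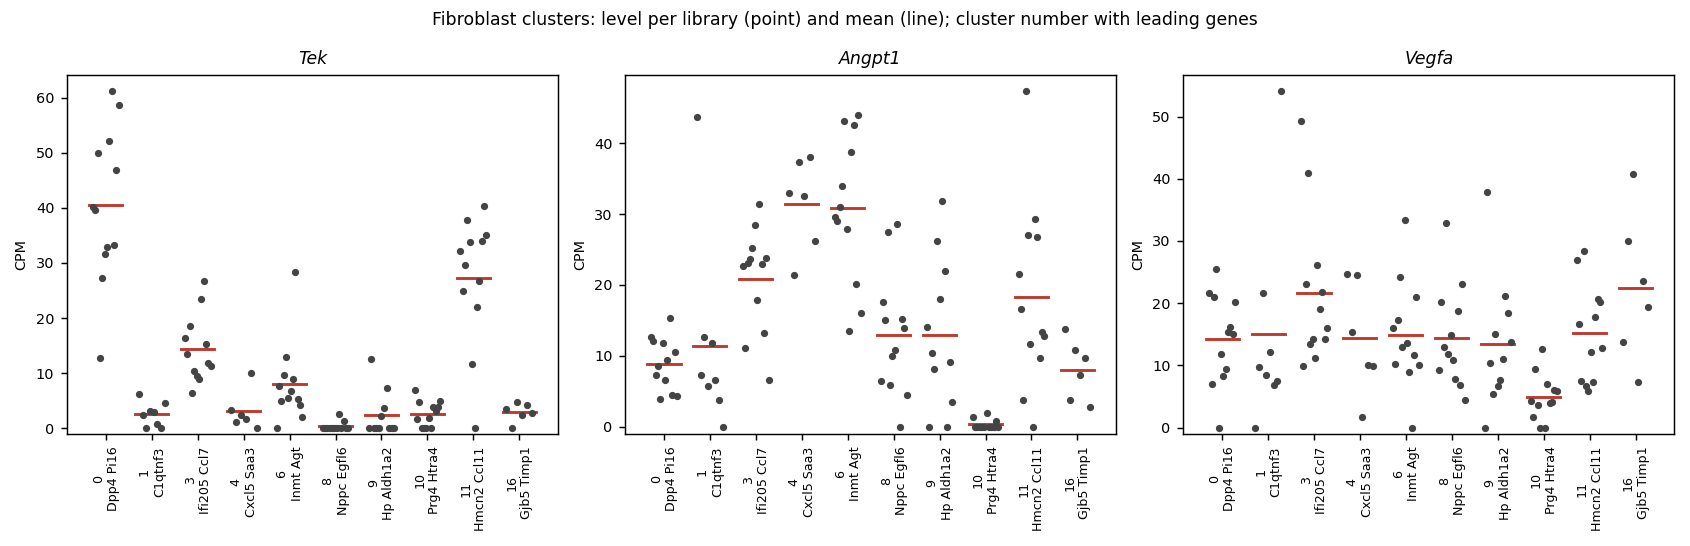
Levels of *Tek*, *Angpt1* and *Vegfa* in the 10 fibroblast clusters, where each point is 1 library in CPM and each line the mean. The mean of *Tek* was 40.5 CPM in the *Dpp4* cluster and 0.331 in the *Nppc* cluster, and that of *Angpt1* 31.4 in the *Cxcl5* cluster and 0.339 in lining fibroblasts.

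Other genes of both pathways were taken from a list of 16, of which 13 passed the filter across cell types. In vascular endothelial cells 9 were higher and 2 lower, beside 53.4% of all genes, with a median of 1.91 against -0.01 over all genes. The largest changes were those of *Dll4*, the Notch ligand of tip cells (log2 fold change 8.10, SE 0.21), *Ptprb*, the phosphatase VE-PTP that acts on TIE2 (5.76, SE 0.17), *Epas1*, which encodes HIF-2α (5.47, SE 0.17), *Esm1* (5.27, SE 0.34) and *Erg*, an ETS factor (4.24, SE 0.24). Of the 2 VEGF co-receptors, *Nrp1* was 2.86 higher in vascular (SE 0.17) and 4.26 lower in lymphatic endothelial cells (SE 0.51) than in fibroblasts on the log2 scale, while *Nrp2* was higher in both (1.91, SE 0.14, and 2.09, SE 0.21). Perivascular cells had *Epas1* at 265 ± 52.1 CPM (SD, n = 12; log2 fold change 4.92, SE 0.18), with 4 of the 13 genes higher and 4 lower, beside 40.5% of all genes, and a median of 0.35 against -0.11. In lymphatic endothelial cells 7 were higher and 4 lower, beside 39.7% of all genes, with a median of 0.58 against -0.31, and *Pgf*, which encodes the VEGFR1 ligand placental growth factor, was at 126 ± 112 CPM (SD, n = 10; log2 fold change 1.97, SE 0.41).

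Of the other ligands and matrix proteins of the list, *Figf* and *Svep1* had their highest mean levels in fibroblasts of the 11 cell types. *Figf*, which encodes VEGF-D, was at 48.4 ± 13.7 CPM in fibroblasts (SD, n = 12) and lower in vascular (-3.66, SE 0.27), lymphatic (-3.73, SE 0.58) and perivascular cells (-2.11, SE 0.29), and *Svep1*, a matrix protein that binds angiopoietins, was lower by 4.30 (SE 0.22), 4.47 (SE 0.44) and 3.85 (SE 0.26). Within fibroblasts, *Pgf* was higher in the *Dpp4* cluster (log2 fold change 2.23, SE 0.19) and the *Ccl11* cluster (2.32, SE 0.26), and *Angpt4*, another angiopoietin, in the *Dkk2* (3.54, SE 0.31) and *Nppc* (3.72, SE 0.30) clusters. In the *Ccl7* cluster 6 of the 10 list genes tested were higher and 0 lower, with *Figf* at 1.38 (SE 0.12) and *Svep1* at 1.64 (SE 0.11). In lining fibroblasts 1 was higher, *Foxo1* (2.18, SE 0.10), and 6 were lower.

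Over the 11 named cell types, which share libraries, the genes closest to each member in mean log2 CPM were named by Pearson's r, as a description. *Flt1* was closest to *Fabp4* (r = 0.992), *Tcf15* (0.982) and *Sox13* (0.974), and *Kdr* to *Gimap1* (0.996), *Sh3tc1* (0.996) and *Arap3* (0.994). *Tie1* was closest to *Gata2* (0.995), *Podxl* (0.993) and *Sh3tc1* (0.991), *Flt4* to *Klhl4* (0.995), *Slfn3* (0.991) and *Gpr182* (0.985), and *Tek* to *Hspa12b* (0.956), *Edn1* (0.956) and *Unc45b* (0.941). *Angpt2* lay near *Stc1* (0.936), *Gja4* (0.930) and *Tbxa2r* (0.919), and *Angpt1* near *Emc9* (0.913), *Echs1* (0.909) and *Igfbp2* (0.908). For the VEGF ligands the genes were *Slc19a1* (0.970), *Inhba* (0.969) and *Pebp1* (0.960) for *Vegfa*, *Megf6* (0.887), *Cul7* (0.873) and *Prdx2* (0.865) for *Vegfb*, and *Ift172* (0.937), *Ly6c1* (0.918) and *Mecom* (0.912) for *Vegfc*.

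The comparison the labels imply is between stages of arthritis. No member passed at peak, in the resolving or in the resolved stage against rest, in fibroblasts (6 members tested), vascular endothelial cells (7) or perivascular cells (2), by edgeR or by DESeq2, and no gene of all those tested was called by edgeR in any of the 9 comparisons (0%). Before adjustment, p-values fell under 0.05 for 60 to 95 of 11841 genes in fibroblasts, 85 to 186 of 6962 in vascular endothelial cells and 43 to 78 of 3284 in perivascular cells, and none was a member. Libraries of one label were far apart. *Tek* in fibroblasts was 16.2, 4.10 and 5.96 CPM in the 3 libraries labelled rest, 17.6, 4.02 and 17.4 at peak, 24.7, 5.54 and 16.3 in the resolving stage and 4.57, 7.33 and 20.8 in the resolved stage, so every pair of labels overlapped. Its log2 fold change at peak was 0.65 (adjusted p = 1 by edgeR, SE 0.75).

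*Vegfa* in fibroblasts was 13.8 ± 4.54 CPM in the libraries labelled rest and 15.8 ± 7.38 in those labelled peak (SD, n = 3 each), for which the fitted log2 difference was 0.24 (SE 0.42). *Angpt2* in vascular endothelial cells was 52.7 ± 16.6 and 71.8 ± 51.0 CPM (SD, n = 3 each), 0.39 on the log2 scale (SE 0.45). The lowest unadjusted p-value of a member, 0.0659, was that of *Flt1* in perivascular cells labelled resolving (log2 fold change -1.22, adjusted p = 0.997 by edgeR, SE 0.61). With the run of suffixes as a block in the same edgeR fit, 0 members passed in each of the 9 comparisons. The SEs of the members' log2 fold changes ran from 0.24 to 0.76, and the values do not show that the stages were alike.

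Several members differed instead between the runs of 3 consecutive barcode suffixes, as did 24.6% to 49.7% of all genes. This grouping does not follow the stage labels and follows the replicate numbers only in part. What the runs stand for was not tested. Each run holds libraries of 3 different labels. Suffixes 1 to 3 are those of rest, peak and resolving replicate 1, suffixes 4 to 6 those of resolved replicate 1, rest replicate 2 and peak replicate 2, suffixes 7 to 9 those of resolving and resolved replicate 2 and rest replicate 3, and suffixes 10 to 12 those of peak, resolving and resolved replicate 3. By an F test over the 4 runs in edgeR, 4 of 6 members tested passed in fibroblasts (49.7% of all genes), 4 of 7 in vascular endothelial cells (24.6%) and 1 of 2 in perivascular cells (25.5%). Whether members passed more often than other genes was not tested, and few members entered. With the replicate number as a block the F test called 1 member in vascular endothelial and 0 in perivascular cells.

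*Tek* in fibroblasts differed most. In order of suffix it was 16.2, 17.6 and 24.7 CPM in run 1, 4.57, 4.10 and 4.02 in run 2, 5.54, 7.33 and 5.96 in run 3 and 17.4, 16.3 and 20.8 in run 4. The 6 libraries of runs 1 and 4 all lay above the 6 of runs 2 and 3. The log2 fold change of suffixes 4 to 6 against 1 to 3 was -2.12 (adjusted p = 1.86e-06 by edgeR, SE 0.20, beside 35.1% of all genes). The *Dpp4* cluster, where *Tek* is highest, made up 27.3% to 36.9% of the fibroblasts in run 1 and 25.8% to 30.8% in run 4, but 4.71% to 6.42% in run 2 and 5.71% to 11.1% in run 3. Within that cluster the mean of *Tek* was 43.2, 23.9, 48.7 and 46.3 CPM in runs 1 to 4, and the F test did not pass (largest log2 difference 0.99, adjusted p = 0.323, beside 8.16%).

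*Angpt1* in fibroblasts was 28.8, 18.3 and 28.4 CPM in suffixes 4 to 6, above each of the other 9 libraries, which ran from 5.84 to 17.3. The log2 fold change against suffixes 1 to 3 was 0.89 (adjusted p = 0.00721, SE 0.24) and that of suffixes 7 to 9 against 4 to 6 was -0.98 (adjusted p = 0.00521, SE 0.22, beside 19%). The *Cxcl5* cluster, 1 of the 2 with the highest *Angpt1* levels (30.5 CPM in run 2, against 35.0 in the *Dkk2* cluster), made up 41.5% to 44.0% of the fibroblasts in run 2 and at most 4.70% in any other library. *Vegfa* was 1.11 lower in suffixes 7 to 9 than in 4 to 6 (adjusted p = 0.00327, SE 0.23), and *Vegfb* 0.55 higher in 4 to 6 than in 1 to 3 (adjusted p = 0.0252, SE 0.19), a call lost without rest replicate 1, peak replicate 1 or peak replicate 2 and with the stage label or the replicate number as a block. Within the *Dpp4*, *Ccl7* and *Dkk2* clusters, none of the 6 values of *Tek*, *Angpt1* and *Vegfa* that could be tested passed, with adjusted p-values of 0.319 to 0.927 (beside 8.16%, 5.76% and 4.64% of all genes). The *Dpp4* sums of suffixes 4 to 6 held 49, 53 and 52 cells, with 3, 7 and 8 *Tek* UMIs. The *Cxcl5* cluster was not among those tested. These values do not show that the runs were alike within a cluster.

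In vascular endothelial cells *Flt1* was 804 to 1138 CPM in run 1 and 883 to 1112 in run 4, and 480 to 625 in run 2 and 596 to 659 in run 3, again without overlap. For suffixes 4 to 6 against 1 to 3 the log2 fold change was -0.78 for *Flt1* (adjusted p = 0.000519, SE 0.14), -0.71 for *Tek* (adjusted p = 0.0173, SE 0.20), -1.29 for *Vegfc* (adjusted p = 0.0052, SE 0.31) and 1.06 for *Angpt2* (adjusted p = 0.0205, SE 0.31, all from edgeR, beside 20.2%). Without peak replicate 2, in which *Angpt2* was 130 CPM, its value was 0.63 and did not pass. The calls of *Angpt2* and *Tek* were also lost without rest replicate 1 or resolving replicate 1, and that of *Tek* without resolved replicate 1. The *Cd276* subcluster, with the least *Flt1*, made up 3.37% and 1.28% of the vascular endothelial cells in runs 1 and 4 and 36.8% and 42.8% in runs 2 and 3.

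*Flt1* in perivascular cells moved the other way. It was 54.0, 47.1 and 37.0 CPM in suffixes 1 to 3 and 99.4, 174 and 145 in suffixes 4 to 6, a log2 fold change of 1.54 (adjusted p = 0.00225 by edgeR, SE 0.32, beside 20.2%). In suffixes 7 to 9 it was 75.7, 94.9 and 92.3 CPM and in suffixes 10 to 12 it was 52.6, 20.5 and 40.5. The runs did not overlap between 4 to 9 and the rest. The difference between suffixes 4 to 6 and 1 to 3 was 2.33 larger on the log2 scale in perivascular than in vascular endothelial cells (adjusted p = 0.00071, SE 0.34, from an edgeR interaction test over 4574 genes, of which 3.98% passed). Between fibroblasts and vascular endothelial cells, where 8.34% passed, the fibroblast value minus the endothelial value was -1.44 for *Tek* (adjusted p = 0.00154, SE 0.28). With the replicate number as a block the perivascular value of *Flt1* was 1.02 and did not pass. Smooth muscle-like cells, with a mean *Flt1* of 15.3 CPM against 62.8 in pericyte-like cells, numbered 27, 21 and 15 in suffixes 1 to 3. In suffixes 4 to 6 they numbered 25, 10 and 14. All perivascular cells made up 2.04% to 2.93% of a library in run 1 and 3.43% to 4.90% in run 2. The part of this make-up in the *Flt1* difference was not tested.

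Other measures moved with the runs, and their part in these differences was not tested. The 12 dissociation and immediate early genes summed to 17599 to 23850 CPM in fibroblasts of runs 1 and 4 and 11324 to 14825 CPM in runs 2 and 3. The 8 vascular endothelial markers, none of them at 0, summed in fibroblasts to 134.8 to 150.6 CPM in run 2, 97.9 to 106.8 in run 3 and 40.2 to 50.4 in runs 1 and 4. In perivascular cells the same markers summed to 280 to 519 CPM in run 1 and 461 to 563 in run 2. Between suffixes 7 to 9 and 4 to 6, no member passed in vascular endothelial (1.58% of all genes) or perivascular cells (0.548%). No member passed between suffixes 10 to 12 and 1 to 3 in any of the 3 cell types, where 0.954%, 0.115% and 0% of all genes did.

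**Figure D5:**
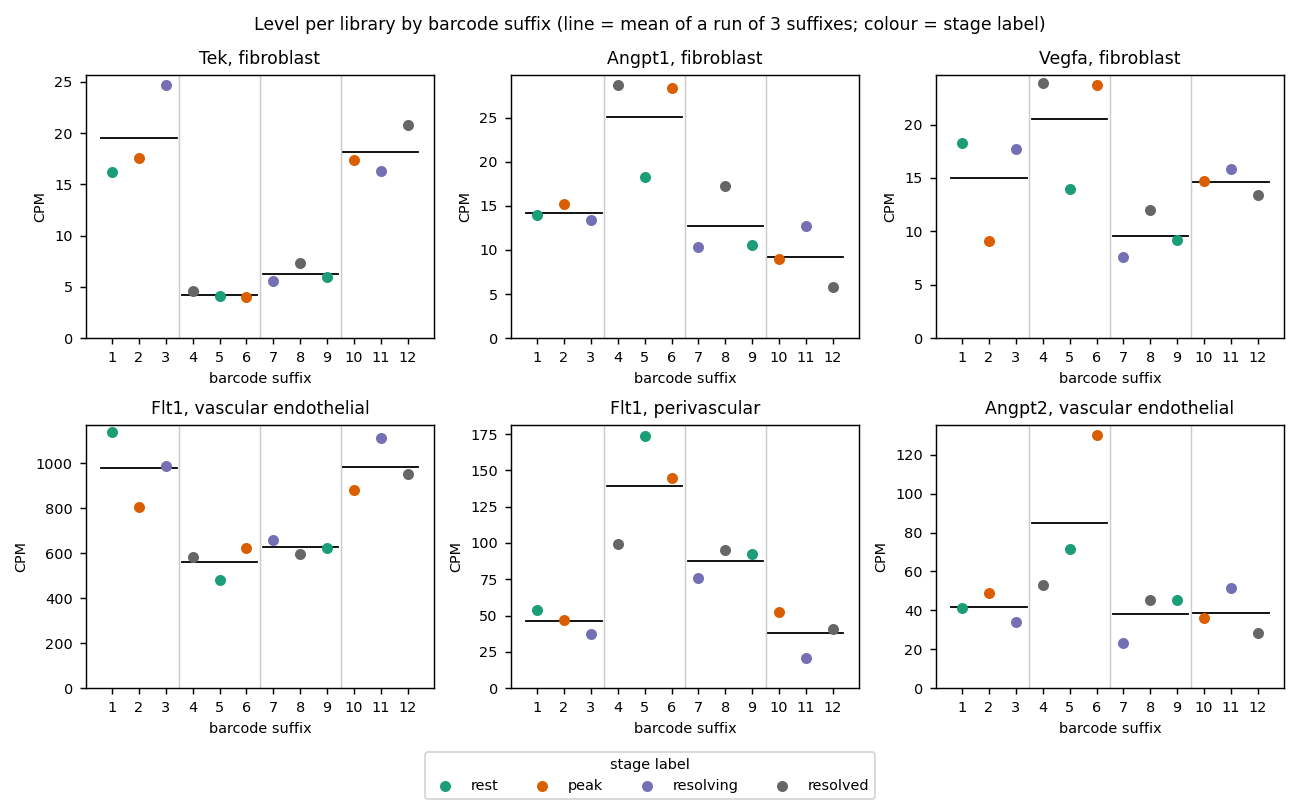
Levels in CPM of *Tek*, *Angpt1* and *Vegfa* in fibroblasts, *Flt1* and *Angpt2* in vascular endothelial cells and *Flt1* in perivascular cells, by barcode suffix from 1 to 12 and coloured by label. In fibroblasts *Tek* is 16.2 CPM or more in suffixes 1 to 3 and 10 to 12 and 7.33 CPM or less in suffixes 4 to 9, across labels.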

How the data were processed

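The authors aligned the reads of 12 droplet libraries (10x 3′ chemistry) to mm10 with Cell Ranger and deposited UMI counts per gene and cell, whole numbers that were used as given. Every deposited library has the same median of 5358 UMIs per cell, and whether depth was equalised before deposit is not given in the sources used here. Totals and shares of cells with a UMI are those of the deposited counts and may not follow sequencing depth. Cells with over 500 and under 5000 genes and over 500 UMIs were kept, with the study's upper UMI limits of 20000 to 40000 per library. Scrublet, used inside scanpy 1.11.5, marked 56 cells (0.279%) at its own threshold, too few to be relied on, so no doublets were removed in the main analysis.

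Counts were scaled to 10000 per cell, and 2000 variable genes, without the members and the pathway list, gave 30 components, 20 neighbours and 27 Leiden clusters at resolution 1 (leidenalg 0.10.2). A cluster was named where at least 4 markers of a type were in 20% of its cells at a log2 fold of 1 or more. Counts were summed per type or cluster and library, for at least 10 cells, and fitted with edgeR 4.0.16 (quasi-likelihood, TMM scaling, filterByExpr, Benjamini-Hochberg), with the library as a block for types and clusters. DESeq2 1.42.0, other scalings and filters, other cell filters and leaving out each library were alternatives. The fits were tested on simulated data. For genes given a log2 change of 1, peak against rest called 13.4% in fibroblasts and 11.9% in vascular endothelial cells. For a change of 2 it called 73.1% and 74.6%. For a change of 1, suffixes 4 to 6 against 1 to 3 in fibroblasts called 67.2%. False calls were 2.61%, 1.63% and 6.49% of all calls, in that order. Most stage differences of 1 on the log2 scale could thus be missed in these cell types. The members, gene lists and marker lists were chosen with earlier results of these data known. All members were named, with the 16 pathway genes as a list and, for each member, the 3 genes of highest Pearson correlation over cell types.

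Libraries are pools of 3 animals, with no label tying replicate numbers together. The correlation of the deviations of same-numbered libraries from their group means ran from -0.527 to 0.639 over 18 pairs in fibroblasts, so the numbers were not taken as pairs. Intervals on shares of cells and floors of 3 counts cover counting error only.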

Additional observations from a re-analysis of the deposited data

Results flagged for a closer look

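Among 34 combinations of a member and a cluster with at least 50 UMIs, 4 had 1 library far from the others by Dixon's criterion, which chance meets in about 1 of 20 groups. *Angpt1* in the *C1qtnf3* fibroblast cluster was 43.7 CPM in resolved replicate 1 and 0 to 12.6 CPM in the other libraries (n = 8). *Vegfa* in the same cluster was 54.1 CPM in resolving replicate 3 and 0 to 21.6 CPM in the others (n = 8). *Kdr* in the *Cd276* endothelial subcluster was 463 CPM in rest replicate 3 against 217 to 303 CPM (n = 6), and *Tie1* in capillary-like cells was 140 CPM in resolving replicate 2 against 356 to 448 CPM (n = 7). In that order, the 4 flagged sums held 17, 18, 24 and 10 cells, with 160181, 221965, 97126 and 21374 UMIs of all genes. Counting error weighs more in sums of so few cells, and its part here was not tested.

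The difference between suffixes 4 to 6 and 1 to 3 itself differed between cell types for 4 comparisons, by an edgeR interaction test with Benjamini-Hochberg adjustment that was added after seeing the data. For *Flt1* it was 2.33 larger on the log2 scale in perivascular than in vascular endothelial cells (adjusted p = 0.00071, SE 0.34). Between fibroblasts and vascular endothelial cells, where 8.34% of 9963 genes passed, the fibroblast difference was lower for *Tek*, at -1.44 (adjusted p = 0.00154, SE 0.28), and for *Angpt2*, at -2.34 (adjusted p = 0.0115, SE 0.57), and higher for *Flt1*, at 1.31 (adjusted p = 0.0237, SE 0.36). *Tek* was lower in suffixes 4 to 6 in both cell types. The fibroblast value of *Angpt2* rests on 86 UMIs over all 12 libraries.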

How the results depend on the processing

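Of the values for single members, 1499 kept their direction and side of the threshold under the alternatives, 76 of 21 results fell short of it and 3 of 2 results reversed. *Tie1* in immune cells against fibroblasts (5 UMIs, log2 fold change 3.50) was -3.24 with doublets removed and ran from -3.19 (without peak replicate 2) to 3.88 as libraries were left out, and *Vegfc* in osteoblasts was 0.029 at Leiden resolution 0.5. The cause was not tested. Without a filter on low counts, which adds members to the test, there were 24 calls over fibroblast clusters (15 with it) and 12 over endothelial subclusters (6 with it). With the replicate number as a block, calls between pairs of runs were 3 in fibroblasts (5 without it) and 0 in perivascular cells (1 without it), and the F test called 1 member in vascular endothelial cells (4 without it) and 0 in perivascular cells (1 without it). No stage call changed with that block. With cells thinned to 2000 UMIs, *Flt1*, *Kdr* and *Tie1* were found in 73.1%, 46.4% and 40.8% of vascular endothelial cells (85.7%, 63.6% and 60.1% unthinned), *Flt4* in 31.8% of lymphatic endothelial cells (51.6%), *Flt1* in 14.2% of perivascular cells (22.9%) and *Tek* in 8.50% of the *Dpp4* cluster (19.3%). Leaving out 1 library at a time gave 9 to 10 members called in vascular endothelial, 7 to 8 in lymphatic endothelial, 5 to 7 in perivascular, 5 to 6 in chondrocyte, 3 to 4 in tenocyte and 3 to 4 in osteoblast sums, 13 to 18 calls over fibroblast clusters and 5 to 8 over endothelial subclusters. Between pairs of runs it gave 4 to 7 calls in fibroblasts and 2 to 4 in vascular endothelial cells, where the 2 were without rest replicate 1 or resolving replicate 1. Against fibroblasts, scaling by total counts moved the median of all genes by 0.59 in lymphatic endothelial, 0.28 in vascular endothelial and 0.21 in perivascular cells on the log2 scale, and DESeq2 size factors in edgeR moved it by 0.38, 0.11 and 0.10. No called member changed direction under either scaling. Over all genes, the stage labels gave up to 47 calls without a filter on low counts (resolving, vascular endothelial), 2 with the replicate block and 1 by DESeq2, and the F test over runs called 574 genes in vascular endothelial cells (1714 without the block) and 151 in perivascular cells (837). Pools of 3 animals and 44952 to 127517 UMIs per lymphatic sum limit the rarer types.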
